A study of Arabidopsis thaliana with 10 samples.

Results

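The aldehyde dehydrogenase (ALDH) family of Arabidopsis thaliana was followed in leaf RNA on 10 Affymetrix arrays. A gene was a member when a probe set named it alone, its symbol or synonym was ALDH followed by a number, and its signal reached 50 or more on at least 2 arrays. Of the 14 ALDH genes in the annotation, 8 had such a probe set, and 8 of these 8 reached the signal threshold. They are 8 of the 13350 genes that a probe set of 1 gene named on these arrays. ALDH2B4, ALDH2B7, ALDH3H1, ALDH3I1, ALDH5F1 and ALDH12A1 were not analysed here. ALDH22A1 lay just inside the threshold, with signals of 47.3 to 68.4, and no named member lay outside it.

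Aldehyde dehydrogenases oxidise aldehydes to carboxylic acids with NAD or NADP as the acceptor of electrons. The aldehydes arise from amino acid and polyamine breakdown, from lipid peroxidation, from glycolysis and from the phenylpropanoid pathway, and many of them are toxic when they build up. In plants several members are known for their response to drought and salt, and leaves that senesce break down proteins and membranes, which are sources of such substrates.

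The arrays form 5 groups of 2, all of fully expanded leaves of untreated plants on compost in a growth room. Wild type plants were sampled at growth stage 3.9 and at growth stage 6.0, and the 3 other groups were sampled at stage 6.0. The wild type arrays at each stage carry the stock codes N933 and N1644, named Col-0 and Col-5 at stage 3.9, while both stage 6.0 arrays are named Col-0 in the source label. The other groups are in the Columbia background: NahG, transgenic for a bacterial enzyme that removes salicylic acid, ein2, which is defective in ethylene signalling, and coi1, which is defective in jasmonate signalling. The labels call ein2 and coi1 transgenic, give the code N3071 to both and give none for NahG. No label tells whether the 2 arrays of a mutant group came from separate plants, so p-values measure only the spread between these samples, possibly technical. Probe sets for EIN2 and COI1 themselves are unnamed here, so those genotype labels were not checked.

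Values are MAS5 signals on a linear scale, and each array had a 2% trimmed mean of 100. A signal of 50 was reached by 9738 to 10835 probe sets per array, and log2 signals of arrays of a group correlated at 0.941 to 0.977. The summed signal of 6 named leaf markers was 20055 to 25925 at stage 3.9. At stage 6.0 it was 5665 and 7127 for wild type and 6293 and 6774 for ein2. It was 8287 and 8588 for NahG and 7710 and 9568 for coi1, so these sums lay above wild type. Single markers differed. In NahG, PSAN, LHCB4.2 and PSAE-1 lay above both wild type arrays, and RCA and PRK overlapped with them. SBPASE lay below, at 932 and 943 against 955 and 1234. In coi1, PSAN, PRK and SBPASE lay above wild type, and RCA, LHCB4.2 and PSAE-1 overlapped. The sum of 2 named guard cell markers was 428 and 503 at stage 3.9. It was 42.9 and 101 in stage 6.0 wild type, 128 and 136 in NahG, and 61.4 to 105 over ein2 and coi1. Most of the sum at stage 3.9 was AT1G22690, at 366 and 471. FMA, at 32.2 and 62.6, did not reach the signal threshold on 2 arrays and overlapped between stages. In NahG, AT1G22690 lay above wild type of stage 6.0 and FMA overlapped with it. The summed signal of 2 root markers was 26.2 to 47.2 on all arrays, and no floral, dividing cell, vascular or trichome marker was named. In leaf RNA, fewer cells of a type and less RNA per cell cannot be told apart. Bacterial and phage hybridisation controls, which are added in equal amount to each sample, had a signal of 429 and 460 at stage 3.9 and of 199 to 382 at stage 6.0. The 3′ to 5′ signal ratio, a measure of RNA integrity, also differed by stage. For ubiquitin it was 2.53 and 2.97 at stage 3.9 and 1.67 to 2.22 at stage 6.0 in one set of control probes, and 2.12 and 2.24 against 1.30 to 1.66 in a second set. The ratio for actin ran the other way in the first set, with 4.09 and 5.09 at stage 3.9 and 5.18 to 10.0 at stage 6.0, and overlapped in the second (2.43 and 2.70 against 1.54 to 2.60). That for GAPDH was 1.91 to 3.28 in the first set and 0.928 to 1.28 in the second. The part of these marker and control differences in the results below was not tested.

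Between stage 3.9 and stage 6.0 in wild type, ALDH7B4, ALDH6B2 and ALDH2C4 rose and ALDH3F1 and ALDH10A8 fell. ALDH10A9, ALDH11A3 and ALDH22A1 did not pass the test. Thus 5 of 8 members passed, against 37.4% of all tested probe sets, with 3 higher (20.2% of all) and 2 lower (17.2% of all). The median log2 difference of the members was -0.21 and that of all probe sets was 0.05. Differences are on the log2(signal + 16) scale, which understates those of low signals, values after ± are standard errors unless marked, and passing means an adjusted p under 0.05 in limma.

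**Figure D1:**
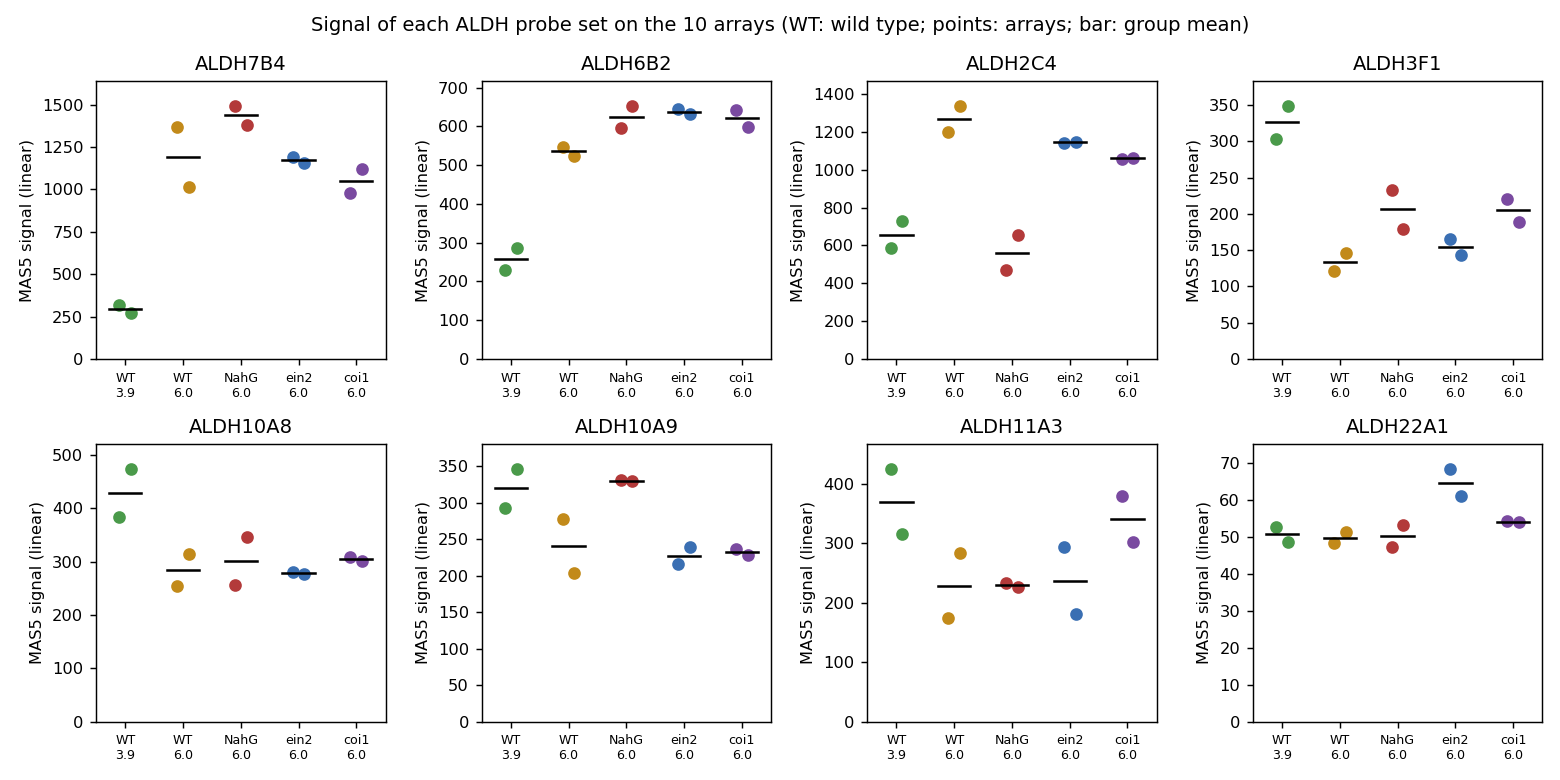
MAS5 signal on a linear axis from 0 for each of the 8 ALDH probe sets, with points for the 2 arrays of each group and a bar for the group mean. ALDH7B4 and ALDH6B2 are low in both stage 3.9 arrays, ALDH2C4 is low in both stage 3.9 and both NahG arrays, and ALDH3F1 is highest at stage 3.9.

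ALDH7B4 (AT1G54100), a member of the antiquitin group known for its induction by dehydration and salt, had a signal of 321 and 274 at stage 3.9. At stage 6.0 its signals were 1367 and 1012 for wild type, 1490.1 and 1382 for NahG, 1189 and 1154 for ein2, and 978 and 1118 for coi1. All 8 stage 6.0 arrays were above both stage 3.9 arrays. The mean signal rose from 297 ± 33.7 to 1189 ± 252 (SD, n = 2), a log2 difference of 1.93 ± 0.19 with an adjusted p of 3.03e-05 in limma. The change was 2.04 within stock N933 and 1.83 within N1644.

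ALDH6B2 (AT2G14170), the mitochondrial methylmalonate semialdehyde dehydrogenase of valine breakdown, had a signal of 229 and 287 at stage 3.9. Its signals at stage 6.0 were 548 and 523 for wild type, 597 and 652 for NahG, 644 and 633 for ein2, and 643 and 599 for coi1. Every stage 6.0 array was again above both stage 3.9 arrays, and the wild type arrays were the lowest of that stage. The wild type mean rose 2.08-fold, with a log2 difference of 1.02 ± 0.17 and an adjusted p of 0.000962 in limma. The change was 1.20 within N933 and 0.83 within N1644.

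ALDH2C4 (AT3G24503), which oxidises sinapaldehyde and coniferaldehyde to sinapic and ferulic acid, had a signal of 586 and 729 at stage 3.9. Wild type leaves of stage 6.0 had 1199 and 1335. Its signals were 1142 and 1148 in ein2, 1056 and 1064 in coi1, and 468 and 655 in NahG. The wild type, ein2 and coi1 arrays of stage 6.0 were all above the others, and the NahG arrays overlapped with those of stage 3.9. In wild type the signal rose 1.93-fold between stages, a log2 difference of 0.94 ± 0.20 with an adjusted p of 0.00395 in limma. The change was 1.01 within N933 and 0.86 within N1644.

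ALDH3F1 (AT4G36250), of the family 3 enzymes that act on lipid-derived aldehydes, had a signal of 304 and 348 at stage 3.9. Its signals at stage 6.0 were 121 and 146 for wild type, 234 and 179 for NahG, 166 and 143 for ein2, and 221 and 189 for coi1. Both stage 3.9 arrays were above all 8 others. The wild type mean fell 2.44-fold, with a log2 difference of -1.19 ± 0.19 and an adjusted p of 0.000657 in limma, and the change was -1.22 within N933 and -1.17 within N1644.

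ALDH10A8 (AT1G74920) and ALDH10A9 (AT3G48170) are aminoaldehyde dehydrogenases, which act on aldehydes from polyamine breakdown and on betaine aldehyde. ALDH10A8 had signals of 385 and 474 at stage 3.9. At stage 6.0 its wild type signals were 254 and 315, those in NahG 257 and 346, those in ein2 280.5 and 277, and those in coi1 309 and 302. Both stage 3.9 arrays were above the rest, and the stage 6.0 groups overlapped with wild type. The log2 difference between stages was -0.57 ± 0.20 with an adjusted p of 0.0436 in limma, and -0.57 within each stock. This call was lost with the stock code as a block (adjusted p = 0.101), when only the 4 wild type arrays were fitted (0.110), and without stage 3.9 array 2 (0.192) or stage 6.0 array 1 (0.231). It was also lost without either ein2 array (0.0592 and 0.0587) or either coi1 array (0.0695 and 0.0694), which enter only the estimate of spread.

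ALDH10A9 had signals of 293 and 346 at stage 3.9. At stage 6.0 its wild type signals were 278 and 203, those in NahG 331 and 330.1, those in ein2 216 and 239, and those in coi1 236 and 228. The NahG arrays lay within the range of stage 3.9 and above the other stage 6.0 arrays. Its difference between stages was -0.40 ± 0.19, with an adjusted p of 0.119 in limma and a 95% interval of -0.81 to 0.01. The values within the stocks were -0.07 for N933 and -0.73 for N1644.

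ALDH11A3 (AT2G24270), the cytosolic non-phosphorylating glyceraldehyde 3-phosphate dehydrogenase that yields NADPH, had signals of 425 and 315 at stage 3.9. Its signals at stage 6.0 were 174 and 283 for wild type, 233 and 226 for NahG, 293 and 181 for ein2, and 379 and 302 for coi1. Arrays of a group lay far apart in wild type and ein2, and the coi1 arrays overlapped with those of stage 3.9. The difference between stages in wild type was -0.68 ± 0.27, with an adjusted p of 0.0743 in limma and a 95% interval of -1.28 to -0.07. Without stage 6.0 array 2 it was -1.01 and passed, with an adjusted p of 0.0286, and without stage 6.0 array 1 it was -0.35 with an adjusted p of 0.428. Within the stocks the values were -1.21 for N933 and -0.15 for N1644.

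ALDH22A1 (AT3G66658), of a family found in plants, had signals of 52.9 and 48.6 at stage 3.9. At stage 6.0 its wild type signals were 48.3 and 51.3, those in NahG 47.3 and 53.1, those in ein2 68.4 and 61.1, and those in coi1 54.3 and 54.1. The ein2 arrays were the highest, and the rest lay within a narrow range around the signal threshold. Its difference between stages was -0.02 ± 0.17, with an adjusted p of 0.942 in limma and a 95% interval of -0.40 to 0.36.

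**Figure D2:**
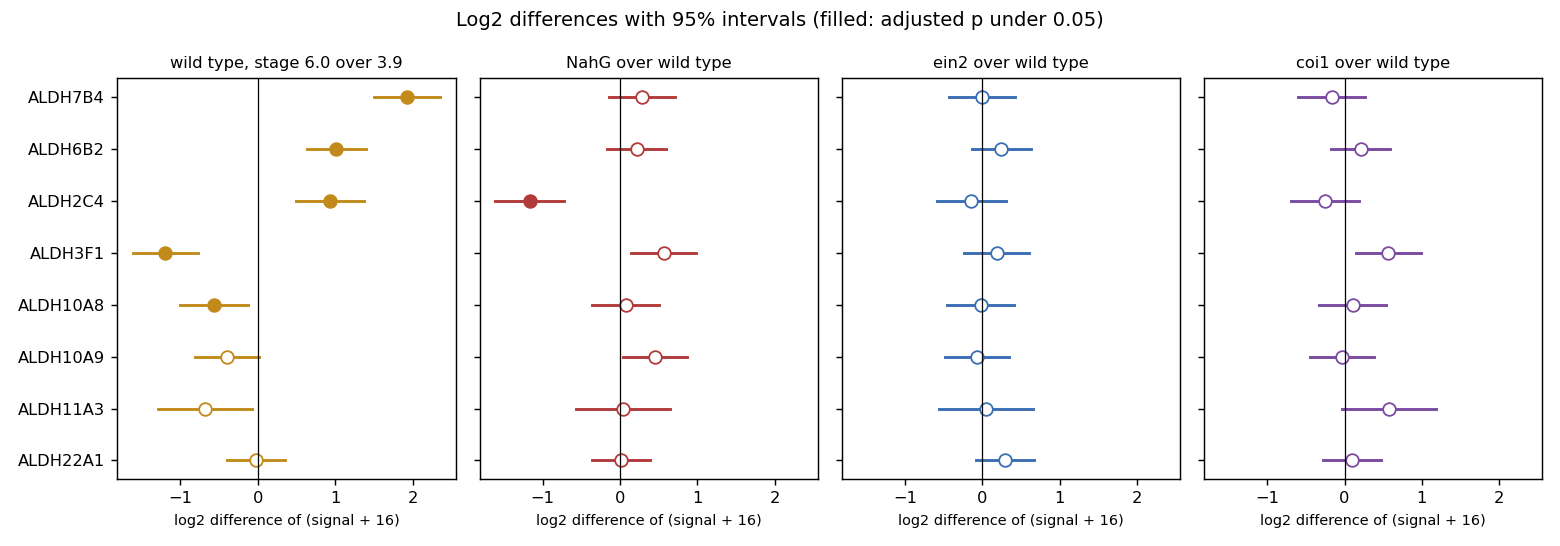
Log2 difference of (signal + 16) for each ALDH probe set in 4 comparisons, with lines for 95% intervals and filled points where the adjusted p is under 0.05. The stage comparison has 5 filled points, NahG has 1 (ALDH2C4, at -1.17), and ein2 and coi1 have 0.

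ALDH3F1 lost its call, and ALDH10A8 its direction, under another scaling. When arrays were scaled to the hybridisation controls, the median of all probe sets between stages moved from 0.05 to 0.66. ALDH7B4, ALDH6B2 and ALDH2C4 then differed by 2.63, 1.71 and 1.65 and passed. ALDH3F1 differed by -0.51 with an adjusted p of 0.325, which is -1.17 relative to the median of all probe sets. ALDH10A8 turned to 0.13, or -0.53 relative to that median. Of all probe sets, 4001 were then higher and 558 lower, against 2461 and 2099 with the trimmed mean.

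**Figure D3:**
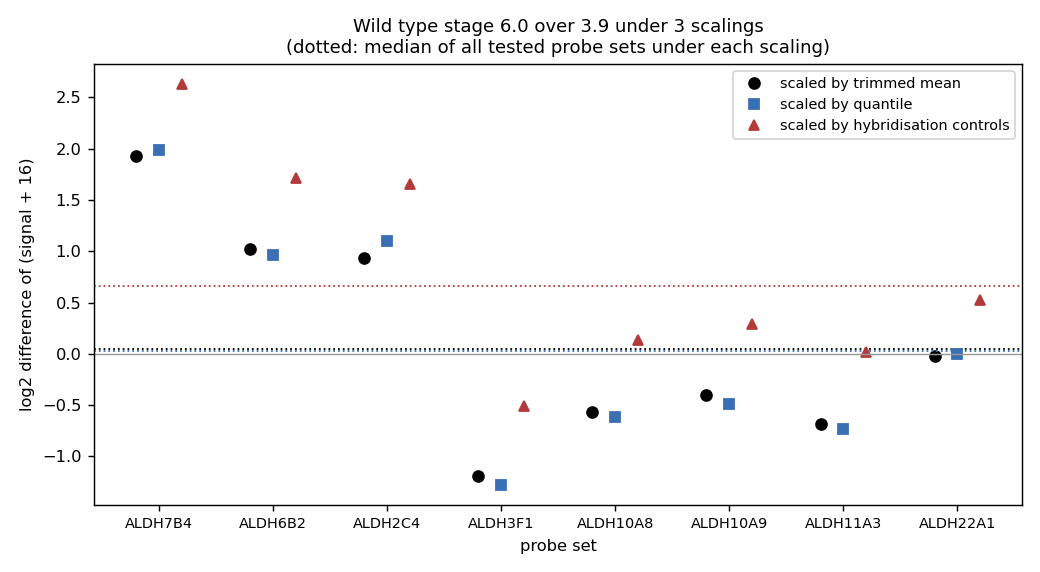
Log2 difference of (signal + 16) between wild type stage 6.0 and 3.9 for each ALDH probe set under 3 scalings, with dotted lines for the median of all tested probe sets. Scaling to hybridisation controls lifts all 8 members and moves the median of all probe sets to 0.66.

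The NahG comparison asks which members differ at stage 6.0 in plants that degrade salicylic acid. ALDH2C4 was lower in NahG than in wild type, with a mean of 561 ± 132 against 1267 ± 95.7 (SD, n = 2). It was the 1 member of 8 that passed, against 9.11% of all tested probe sets and 5.5% that passed lower. The log2 difference was -1.17 ± 0.20, 2.26-fold lower by means, with an adjusted p of 0.00419 in limma. Without NahG array 1 it was -0.93 with an adjusted p of 0.0561. ALDH2C4 was also lower in NahG than in ein2 (-1.03 ± 0.20, adjusted p = 0.00951 in limma, with 7.53% of all probe sets passing) and than in coi1 (-0.92 ± 0.20, adjusted p = 0.0141, with 11% passing). Both of these calls were lost with hybridisation control scaling (adjusted p of 0.271 and 0.140) and without NahG array 1 (0.116 and 0.130), that against ein2 also without either ein2 array (0.0618 and 0.0716), and that against coi1 without either coi1 array (0.0840 and 0.0776). Against stage 3.9 the NahG arrays differed by -0.23 ± 0.20, with an adjusted p of 0.414. The stage and NahG comparisons share the wild type stage 6.0 arrays. Both NahG arrays also lay above both wild type arrays in the summed leaf markers (8287 and 8588 against 5665 and 7127). Of these markers, RCA and PRK overlapped with wild type and SBPASE was lower. The summed guard cell markers were also above (128 and 136 against 42.9 and 101), although FMA overlapped. The part of these differences in the NahG results was not tested.

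The other 7 members did not pass in NahG, with 95% intervals between -0.56 and 0.99. Counting ALDH2C4, 3 of 8 members had an unadjusted p under 0.05. The share of all probe sets at that level was not computed for any comparison. ALDH3F1 differed by 0.56 ± 0.19 (adjusted p = 0.0972 in limma) and its groups did not overlap. ALDH10A9 differed by 0.45 ± 0.19 (adjusted p = 0.178) and ALDH7B4 by 0.28 ± 0.19 (0.425), each with NahG arrays above those of wild type. Leaving out 1 wild type array moved ALDH10A9 to 0.24 or 0.66 and ALDH7B4 to 0.07 or 0.50. ALDH6B2 differed by 0.21 ± 0.17 (0.504), also without overlap. ALDH10A8, ALDH11A3 and ALDH22A1 differed by 0.07, 0.04 and 0.01 and overlapped. Arrays did not overlap with wild type for 5 of 8 members in NahG, 5 in coi1 and 3 in ein2. The share over all probe sets was not computed, so overlap here only describes the values. The members had a median of 0.14 and all probe sets 0.01.

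The ein2 and coi1 comparisons ask the same of plants with defects in ethylene and in jasmonate signalling. In ein2, limma called 0 of 8 members, against 0.123% of all probe sets, and 0 had an unadjusted p under 0.05. The 95% intervals ran from -0.58 to 0.67, and within those bounds no difference was detectable with 2 arrays per group. ALDH22A1 had the largest difference, 0.29 ± 0.17 with an adjusted p of 0.595. In coi1, limma called 0 of 8 members, against 1.01% of all probe sets, and 1 had an unadjusted p under 0.05. That member was ALDH3F1, at 0.56 ± 0.19 with an adjusted p of 0.211. ALDH11A3 differed by 0.57 ± 0.27 with an adjusted p of 0.380, and the intervals of the 8 members ran from -0.69 to 1.18. The summed leaf markers were 7710 and 9568 in coi1, above both wild type arrays, although RCA, LHCB4.2 and PSAE-1 overlapped with wild type. The part of these markers in the coi1 values was not tested.

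Against wild type at stage 3.9, ALDH7B4 was higher in all 3 other genotypes, by 2.22 ± 0.19 for NahG, 1.93 ± 0.19 for ein2 and 1.76 ± 0.19 for coi1. ALDH6B2 was higher by 1.23, 1.26 and 1.22, each ± 0.17. ALDH3F1 was lower, with differences of -0.63, -1.01 and -0.63, each ± 0.19. ALDH2C4 was higher in ein2 (0.79 ± 0.20) and coi1 (0.68 ± 0.20), and ALDH10A8 was lower in ein2 (-0.59 ± 0.20, adjusted p = 0.0399 in limma). These counts, 3 of 8 in NahG, 5 in ein2 and 4 in coi1, stand beside 31.2%, 34.5% and 34.6% of all probe sets. The ALDH7B4 and ALDH6B2 calls held under all alternatives run. With hybridisation control scaling ALDH3F1 differed by -0.03 in NahG, -0.57 in ein2 and -0.01 in coi1, and did not pass. The ALDH3F1 calls in NahG and coi1 were also lost without stage 3.9 array 2 (adjusted p of 0.116 and 0.108), in NahG without NahG array 2 (0.182), and in coi1 without either coi1 array (0.0628 and 0.166). The ALDH2C4 calls were lost without stage 3.9 array 1 (0.0594 in ein2 and 0.111 in coi1), in ein2 without ein2 array 2 (0.0576), and in coi1 without either coi1 array (0.0841 and 0.0910). The ALDH10A8 call in ein2 was lost under 7 of 18 alternatives, with values of -0.73 to -0.44 when 1 array was left out. The 3 comparisons share the stage 3.9 arrays, and genotype and stage differ together in each.

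When the 5 groups of each member were ordered by level, 4 of 32 steps between neighbours passed. The order was read from the same values that were tested, so these steps only describe the levels. The share of passing steps over all probe sets was not computed. ALDH7B4 ran from NahG through wild type 6.0, ein2 and coi1 to stage 3.9, with the last step passing (adjusted p = 7.39e-05 in limma). ALDH6B2 ran from ein2 through NahG, coi1 and wild type 6.0 to stage 3.9, and again the last step passed. ALDH2C4 ran from wild type 6.0 through ein2 and coi1 to stage 3.9 and NahG, with a passing step between coi1 and stage 3.9 (0.0222). ALDH3F1 ran from stage 3.9 through NahG, coi1 and ein2 to wild type 6.0, with a passing step between stage 3.9 and NahG (0.0282). No step in the order of ALDH10A8, ALDH10A9, ALDH11A3 or ALDH22A1 passed.

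Genes were taken from lists of pathways around aldehyde metabolism and of dehydration and senescence-associated genes, of which few have a named probe set. Whether each list supplies or uses a substrate of a member was not checked. Beside the counts below, 37.4% of all tested probe sets passed between stages (20.2% higher and 17.2% lower), and 9.11% passed in NahG. For proline metabolism, 2 of 9 genes were tested and both rose between stages: DELTA-OAT, ornithine aminotransferase, by 2.27 ± 0.20 and AT5G38710 by 3.07 ± 0.19 (adjusted p of 1.46e-05 and 1.67e-06 in limma). The 1 tested gene of 10 on the GABA shunt list, AT1G08230, listed as the GABA transporter GAT1, rose by 1.86 ± 0.16. AER, an alkenal reductase and the 1 tested gene of 13 for lipid-derived aldehydes, rose by 1.74 ± 0.24.

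The list for branched-chain amino acid breakdown was set beside ALDH6B2, an enzyme of valine breakdown. It was not limited to the valine branch, so its counts do not describe that branch alone. The list also took in BCAT1 to BCAT6 without a check that each acts in breakdown. Of its 18 genes, 9 were tested and limma called 0 between stages, against 37.4% of all probe sets. An unadjusted p under 0.05 was reached by 2, and 0 to 2 were called over the alternatives. Those nearest to passing were ATBCAT-5 at -0.57 (adjusted p = 0.0518) and IVD, isovaleryl-CoA dehydrogenase, at 0.47 (0.0734). In NahG limma again called 0 of the 9 (2 at an unadjusted p under 0.05, and 0 to 1 called over the alternatives), with MCCA at 0.59 (0.0574) and ATBCAT-5 at 0.64 (0.0860). For polyamines, the source of substrates of ALDH10A8 and ALDH10A9, CuAO1, a copper amine oxidase, rose by 1.78 ± 0.18, while SAMDC (0.39) and AT5G15950 (-0.34) did not pass. For the list of triose phosphate steps of glycolysis, set beside ALDH11A3 without regard to cell compartment, all 3 tested genes of 12 fell. Of all probe sets, 17.2% passed lower. AT1G56190, listed as PGK2, fell by 1.41 ± 0.20, TPI fell by 0.70 ± 0.19 and GAPC2 fell by 0.50 ± 0.17. The count of called genes ranged from 0, with hybridisation control scaling, to 3.

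Of the dehydration genes, 3 of 17 were tested, and COR47 rose by 1.97 ± 0.27 while COR15A (0.54) and COR15B (-0.64) did not pass. Of the phenylpropanoid genes beside ALDH2C4, 1 of 18 was tested: HCT differed by 0.17 between stages (adjusted p = 0.626 in limma) and by -0.04 in NahG (0.951). For ethanol and acetate, PDC2, pyruvate decarboxylase, rose by 1.04 ± 0.21 and ACS, acetyl-CoA synthetase, differed by -0.03. Of the senescence-associated genes, 3 of 4 tested rose between stages and 0 fell, beside 20.2% and 17.2% of all probe sets. SAG29 rose by 3.82 ± 0.52, WRKY6 by 3.35 ± 0.19 and WRKY53 by 0.93 ± 0.23. In NahG, PDC2 was higher by 1.01 ± 0.21 and ACS lower (-0.91 ± 0.23), AT5G38710 was lower (-0.77 ± 0.19) and the senescence regulator WRKY53 was lower (-2.11 ± 0.23). WRKY53 was the 1 of 4 tested senescence-associated genes that passed in NahG. SAG29 differed by 1.19, SAG101 by -0.66 and WRKY6 by -0.30, and these did not pass. The NahG calls of the proline and the ethanol and acetate lists ranged from 0 to 1 and from 0 to 2 over the alternatives, falling to 0 without NahG array 1. Of the 29 tested genes of these lists, limma called 0 in ein2 and 0 in coi1, against 0.123% and 1.01% of all probe sets. An unadjusted p under 0.05 was reached by 7 in each and by 11 in NahG, and the share of all probe sets at that level was not computed. Over the alternatives the senescence-associated list went from 0 to 1 called in ein2 and in coi1, each time without wild type stage 6.0 array 2, and in ein2 also with hybridisation control scaling.

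For each member called in at least 1 comparison, the 2 genes of most similar profile were found by Pearson's r of log2 signals over the 10 arrays, which share scaling and the contrast of stages. The search covered the 6452 tested probe sets that name 1 gene. The stage 6.0 arrays are among the 10, so r over them is no separate check. ALDH7B4 was most like DELTA-OAT (r = 0.991) and CuAO1 (0.988), and over the 8 stage 6.0 arrays these were 0.873 and 0.750. ALDH6B2 was most like UF3GT, a flavonoid glycosyltransferase (0.980), and AT3G27210 (0.979), with 0.451 and 0.604 over the stage 6.0 arrays. ALDH2C4 was most like AT4G02550 (0.970) and AT1G03290 (0.959), with 0.963 and 0.976 over the stage 6.0 arrays. AT1G03290 had mean signals of 145 at stage 3.9, then 284 for wild type, 109 for NahG, 243 for ein2 and 243 for coi1. ALDH3F1 was most like AT1G02180 (0.982) and AT1G61900 (0.975), with 0.945 and 0.940 over the stage 6.0 arrays. ALDH10A8 was most like AT5G38290 (0.964) and AT1G51110 (0.949), with 0.848 and 0.839 over the stage 6.0 arrays.

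**Figure D4:**
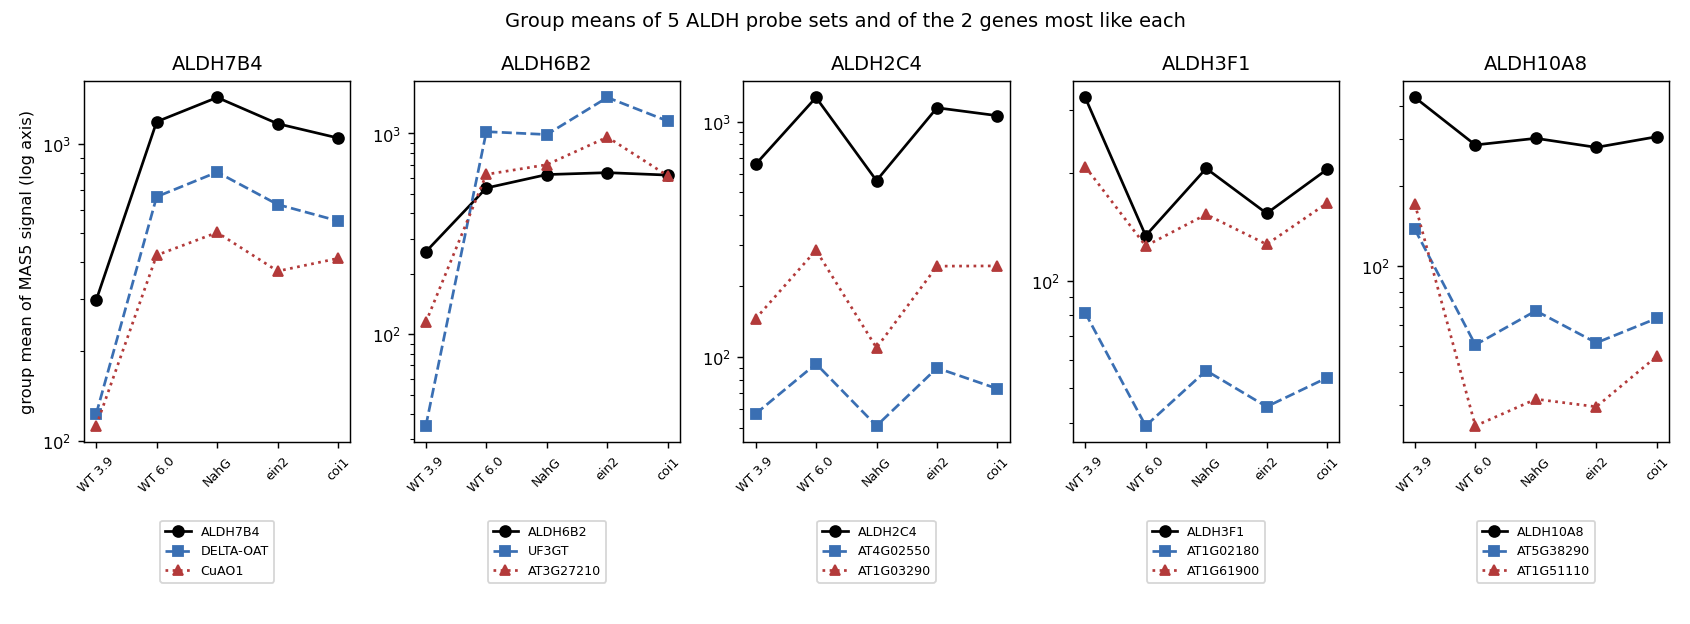
Group means of MAS5 signal on a log axis for 5 ALDH probe sets and the 2 genes of most similar profile to each, over the 5 groups (WT, wild type). In the ALDH2C4 panel all 3 lines drop in NahG, and in the ALDH7B4 panel all 3 rise from stage 3.9 and stay high. The similar genes were chosen on these same arrays.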

How the data were processed

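The deposited table holds intensity values, made by the authors with MAS5 per the submitters' processing notes (version not given in the sources used here). Arrays (10) were brought to a 2% trimmed mean of 100, computed without the 64 control probe sets, which were left out. Tests covered the 12184 of 22810 probe sets that reached a signal of 50 on at least 2 arrays. The fit of all 5 groups used log2(signal + 16) and limma 3.58.1 (R 4.3.3, lmFit and eBayes with trend), with 5 residual and 5.74 prior degrees of freedom and Benjamini-Hochberg adjustment within a comparison. The number of arrays limits the precision, with a median standard error of 0.21. The fit was tested on simulated data. Probe sets were named through the platform's probe table, with symbols of TAIR10.1, from which no coordinates were taken.

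Members, lists and tests were chosen with earlier results of these data known. Text names all members, up to 3 passing genes (or else up to 2 of smallest p) per list and comparison, and 2 genes most like each called member. As an exception, list genes in ein2 and coi1, and those of other lists without a call in NahG, are given as counts. Genes that did not pass are also named beside passing ones for the dehydration, polyamine, ethanol and acetate, and senescence-associated lists. Wild type arrays were paired across stages by stock code, although the source label of the N1644 array changes from Col-5 to Col-0, and their deviations from group means correlated at 0.0762. Those of same-numbered mutant arrays correlated at -0.133 to 0.337, and these numbers were not used as pairs.

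The 3′ to 5′ ratios were first computed from the AFFX-Athal control sets. A second set, AFFX-r2-At, was added after the first values had been seen, because the Athal actin pair joins probe sets of different specificity, and both sets are given. Alternatives were the added signal (1 or 64), the filter (none or 100), quantile and hybridisation control scaling (18 sets), values as deposited, no trend, only the groups compared, the stock code as a block and each array left out. Promoter motifs were planned and not analysed here.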

Additional observations from a re-analysis of the deposited data

Results flagged for a closer look

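ALDH22A1 is given a second look because its change between stages had opposite signs in the wild type stocks. It was -0.10 within N933 and 0.06 within N1644, so that the change in N933 minus that in N1644 was -0.159 on the log2 scale. There was 1 array per stock and stage, and the difference was not tested. Its signals lay near the threshold of 50. The remaining 7 members had values of the same sign in both stocks.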

How the results depend on the processing

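Of 864 recomputed member differences, 794 kept their direction and side of the threshold, 29 changed sign, 40 lost the call (1 of them with a change of sign) and 2 gained it. Of 20 calls over all comparisons, 9 held under every alternative run: ALDH7B4 and ALDH6B2 in all genotypes against stage 3.9, and ALDH2C4 in wild type. For comparisons other than the 4 main ones, only called differences were recomputed. Arrays scaled to hybridisation controls gave 3 calls between stages and 2 neighbour steps. Leaving out 1 array gave 4 to 6 calls between stages, 0 to 1 in NahG (0 without NahG array 1), 0 in ein2 and coi1, and 2 to 4 neighbour steps (2 without coi1 array 2). With the stock code as a block, 4 members passed between stages and only the ALDH10A8 call was lost. No filter and only the groups compared also gave 4, and quantile normalization gave 6, adding ALDH10A9 (-0.49, adjusted p = 0.0468 in limma).

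Quantile normalization turned ALDH22A1 between stages to 0.0026 and ALDH10A8 in ein2 to 0.014. Hybridisation control scaling turned ALDH10A8, ALDH10A9, ALDH11A3 and ALDH22A1 between stages to 0.13, 0.29, 0.015 and 0.53. In NahG it turned ALDH10A8, ALDH11A3 and ALDH22A1 to -0.017, -0.046 and -0.062. In ein2 it turned ALDH11A3, ALDH3F1 and ALDH6B2 to -0.21, -0.060 and -0.023. That scaling moved the medians of all probe sets to -0.23 in ein2, -0.07 in NahG and -0.02 in coi1, and their calls from 15 to 58 in ein2 and from 1110 to 533 in NahG.

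Signs changed with 1 array left out for ALDH22A1 between stages (-0.066 to 0.027). In NahG they changed for ALDH10A8 (-0.13 to 0.28), ALDH11A3 (-0.29 to 0.37) and ALDH22A1 (-0.055 to 0.072). In ein2 they changed for ALDH10A9 (-0.28 to 0.15), ALDH11A3 (-0.28 to 0.38), ALDH7B4 (-0.22 to 0.21) and ALDH10A8 (-0.17 to 0.12). In coi1 they changed for ALDH10A8 (-0.041 to 0.25), ALDH10A9 (-0.25 to 0.18) and ALDH7B4 (-0.38 to 0.047). The causes were not tested. A group left with 1 array is assumed to vary like the others.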
